A study of Homo sapiens with 6 samples.

Results

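Transcripts of 39 genes of glycolysis and of the response to low oxygen were followed in HaCaT cells. HaCaT is a human skin keratinocyte line that became immortal in culture. The genes were taken by symbol as 19 glycolytic enzymes and 20 regulators and targets of the hypoxia-inducible factors (HIF). All 39 were in the deposited table, and the 36 that reached 1 RPKM (reads per kilobase of exon, scaled to library depth) in at least 1 of 6 libraries were analysed, among 12925 such genes of 27945. All 19 enzymes and 17 of the 20 HIF genes passed this level. The 3 that did not were the carbonic anhydrases CA9 and CA12, with highest values of 0.523 and 0.845 RPKM, and the HIF prolyl hydroxylase EGLN3, with 0.219 RPKM. PFKFB4, a relative of PFKFB3, lay just inside, with a highest value of 1.10 RPKM.

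The groups were p38α-knockout cells given IL-1α in PBS (2 libraries), p38α-knockout cells given PBS alone, here called unstimulated (1 library), wild-type cells given IL-1α in PBS (2 libraries) and wild-type cells given PBS alone (1 library). Each treatment lasted 4 h, and all cells grew in DMEM with serum and antibiotics. p38α is a stress-activated kinase encoded by MAPK14, and IL-1α is an alarm cytokine of damaged keratinocytes. The labels do not describe the edit, do not say whether the knockout is 1 clone, give no oxygen level, and do not say whether replicates came from separate cultures, so a p-value measures only the spread between these samples. The study's design text names the comparison of both genotypes at rest and under IL-1α.

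Glycolysis splits glucose into pyruvate in the cytosol, and lactate dehydrogenase turns pyruvate into lactate. HIF consists of an oxygen-sensitive α subunit, HIF-1α (HIF1A) or HIF-2α (EPAS1), and a stable β subunit. In oxygenated cells the prolyl hydroxylase PHD2 (EGLN1) marks the α subunits for destruction, so HIF activity is set largely at the protein level, which was not measured here. When stabilised, HIF binds the letters ACGTG or GCGTG near its targets, which include glucose carriers, most glycolytic enzymes, the mitophagy receptors BNIP3 and BNIP3L and the blood vessel growth factor VEGFA. The outer skin is poorly oxygenated, and keratinocytes are known for a high rate of glycolysis.

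Recovered depth was 21889339 to 34967802 reads in the knockout libraries and 16294230 to 18534957 reads in the wild-type libraries. Across genes, the knockout IL-1α pair correlated at 0.969 and the wild-type IL-1α pair at 0.985, while knockout IL-1α replicate 1 correlated at 0.982 with the unstimulated knockout library. Knockout IL-1α replicate 2 correlated at 0.960 with that unstimulated library, and the wild-type IL-1α libraries at 0.962 and 0.951 with theirs. With 1 pair these values do not show which knockout replicate is the unusual one. Values without knockout IL-1α replicate 2 are given for the members named where they moved by over 1.5 times. MAPK14 was at 7.41 to 11.3 RPKM in the knockout libraries and 13.3 to 14.8 RPKM in the wild-type libraries (log2 difference under IL-1α -0.61 ± 0.22 SE, adjusted p = 0.301), and the lowest value was that of knockout IL-1α replicate 2. All 10 keratinocyte markers were present, summing to 3469 to 4064 RPKM in knockout and 5709 to 6823 RPKM in wild-type libraries. Marker sums of fibroblasts, leukocytes, endothelium and melanocytes lay between 0.756 and 14.8 RPKM in every library, the last 3 with a single gene at 1 RPKM each (CD68, CDH5 and MITF; the first 2 differed with IL-1α and are given there), and PECAM1 and TYR were listed at 0 throughout.

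The glycolytic enzymes were among the strongly transcribed genes of these cells. GAPDH, glyceraldehyde-3-phosphate dehydrogenase, had 1777 and 1978 RPKM under IL-1α and 1844 RPKM unstimulated in knockout cells, and 1516 and 1581 RPKM under IL-1α and 1956 RPKM unstimulated in wild-type cells. PKM, the pyruvate kinase of the last energy-yielding step, had 1302 and 1231 RPKM under IL-1α and 1302 RPKM unstimulated in knockout cells, and 1254 and 1301 RPKM under IL-1α and 1119 RPKM unstimulated in wild-type cells. Both genes were high in every library, and over all libraries the genotypes overlapped. Under IL-1α alone, both knockout values of GAPDH lay above both wild-type values, while those of PKM overlapped. LDHA, the lactate-forming subunit of lactate dehydrogenase, ranged from 569 to 770 RPKM, enolase 1 (ENO1) from 593 to 862 RPKM and aldolase A (ALDOA) from 464 to 624 RPKM, so that these 3 overlapped one another. Triosephosphate isomerase (TPI1, 194 to 273 RPKM) and phosphoglycerate kinase 1 (PGK1, 197 to 233 RPKM) formed the next step down. GAPDH, PGK1, LDHA, TPI1, ENO1 and PGAM1 have processed pseudogenes of close sequence, so part of their values may be shared with or lost to those copies.

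The remaining enzymes, those of the entry steps among them, were transcribed less. Among the phosphofructokinases, which commit sugar to glycolysis, the platelet form PFKP carried 72.8% to 80.0% of the summed RPKM of the 3 genes, with 116 to 146 RPKM against 23.2 to 27.3 RPKM for PFKL and 12.4 to 24.6 RPKM for PFKM. Glucose-6-phosphate isomerase (GPI) ranged from 58.2 to 81.9 RPKM and phosphoglycerate mutase 1 (PGAM1) from 26.6 to 40.9 RPKM. For paired isozymes a single form prevailed in all 6 libraries. ALDOA was at least 98.6% of the aldolases ALDOA and ALDOC, ENO1 at least 99.6% of ENO1 and ENO2, LDHA 80.3% to 85.9% of LDHA and LDHB, and PFKFB3 at least 94.0% of PFKFB3 and PFKFB4.

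**Figure D1:**
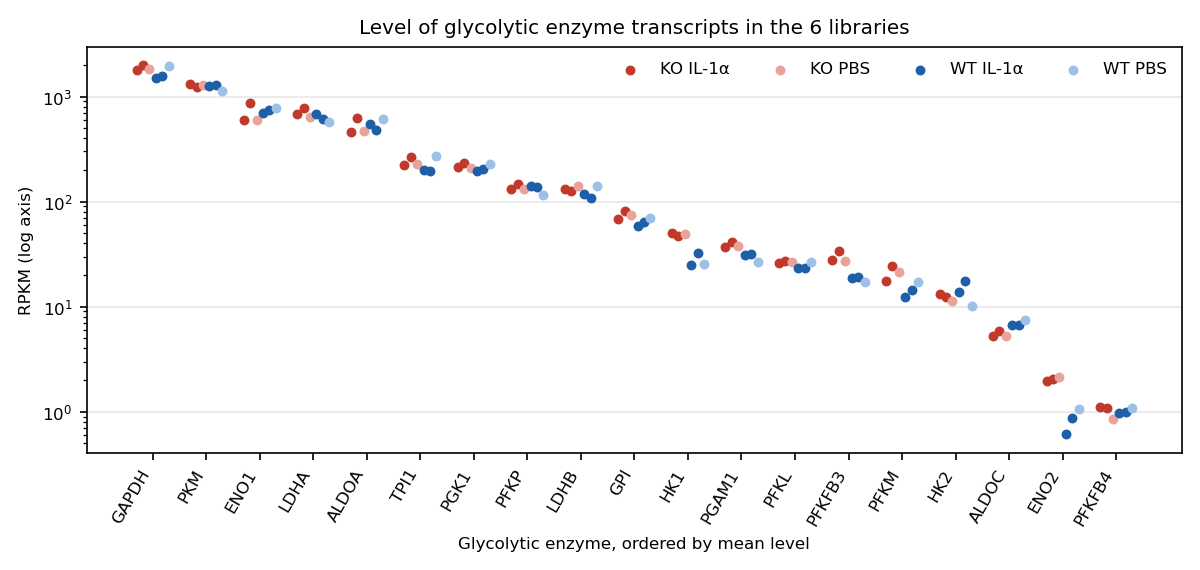
RPKM of the 19 glycolytic enzymes in each of the 6 libraries on a log axis, ordered by mean level, knockout points (red) left of wild-type points (blue); each point is 1 library. GAPDH and PKM are the highest in every library and ENO2 and PFKFB4 the lowest, and the genotypes separate visibly for HK1, PFKFB3 and ENO2.

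In the comparison of knockout with wild-type cells under IL-1α, 0 of the 36 genes passed an adjusted p of 0.05 with limma, and 0 passed with voom weights on rebuilt reads. Over all genes tested 0.155% passed with limma. At an unadjusted p below 0.05, 7 members were higher in the knockout, where 9.97% of all genes were, and 1 was lower, where 4.93% of all genes were. The 7 were HK1, PFKM, PFKFB3, ENO2, SLC2A3, BNIP3 and P4HA2, of which SLC2A3 reached 1 RPKM only in a knockout library, and the lower one was VEGFA. The median log2 difference was 0.19 over the 19 enzymes and 0.29 over the 17 HIF genes, beside 0.09 over all genes, with 25 members above 0 (61.1% of all genes), and without knockout IL-1α replicate 2 the HIF median was 0.07.

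**Figure D2:**
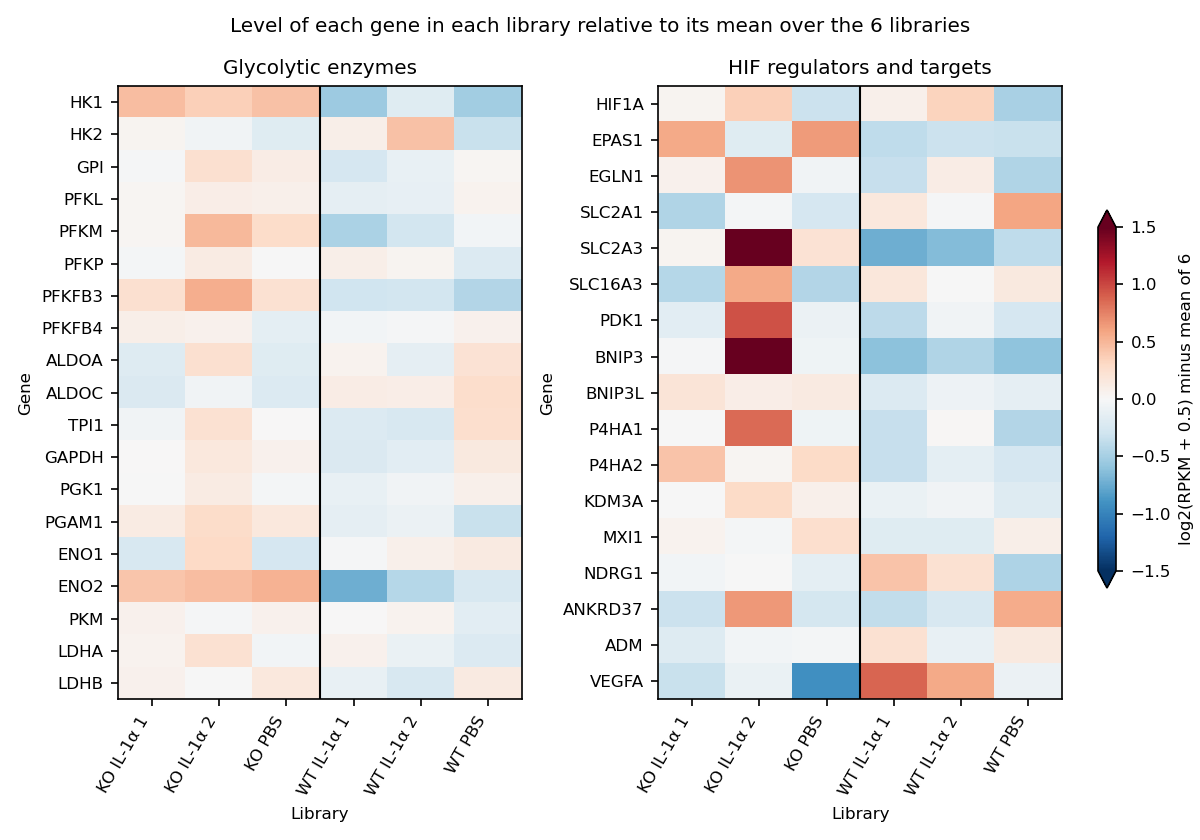
Heat map of the 36 genes in the 6 libraries, as log2(RPKM + 0.5) minus the gene's mean over the 6 libraries, enzymes at left and HIF genes at right; red is above and blue below the mean, knockout columns stand left of the black line. HK1, PFKFB3 and ENO2 are red in all 3 knockout columns, VEGFA and SLC2A1 lie lower in knockout than in wild-type columns, and the darkest reds are BNIP3 and SLC2A3 in knockout IL-1α replicate 2.

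The hexokinase that traps glucose in the cell stood out among the enzymes. HK1 (chromosome 10, 71077937 to 71161637, hg19) had 50.4 and 47.0 RPKM under IL-1α and 49.7 RPKM unstimulated in knockout cells, against 24.9 and 32.1 RPKM under IL-1α and 25.2 RPKM unstimulated in wild-type cells. Every knockout library lay above every wild-type library. Under IL-1α the log2 difference came to 0.77 ± 0.18 (SE, adjusted p = 0.189) and unstimulated to 0.96, with 1 library per genotype compared by size alone. HK2, the inducible hexokinase, had 13.3 and 12.5 RPKM under IL-1α and 11.4 RPKM unstimulated in knockout cells. Wild-type cells had 13.7 and 17.6 RPKM of HK2 under IL-1α and 10.2 RPKM unstimulated. Over all libraries the genotypes overlapped for HK2, though under IL-1α both knockout values lay below both wild-type values. HK1 accordingly made up 79.1%, 79.0% and, unstimulated, 81.4% of the summed RPKM of HK1 and HK2 in knockout libraries, and 64.4%, 64.6% and, unstimulated, 71.3% in wild-type libraries. No test was made of this share.

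PFKFB3, which makes the phosphofructokinase activator fructose 2,6-bisphosphate (chromosome 10, 6186841 to 6277507), separated the genotypes in the same direction. It had 27.6 and 34.2 RPKM under IL-1α and 27.3 RPKM unstimulated in knockout cells, against 18.8 and 19.1 RPKM under IL-1α and 17.0 RPKM unstimulated in wild-type cells. The log2 difference was 0.68 ± 0.17 under IL-1α (adjusted p = 0.199) and 0.67 unstimulated. PFKM, the muscle-type phosphofructokinase, had 17.7 and 24.6 RPKM under IL-1α and 21.2 RPKM unstimulated in knockout cells, against 12.4 and 14.4 RPKM under IL-1α and 17.0 RPKM unstimulated in wild-type cells (0.63 ± 0.21, adjusted p = 0.263). Its lowest knockout and highest wild-type values lay close together, and without knockout IL-1α replicate 2 the difference was 0.40. PGAM1 had 36.8 and 40.9 RPKM under IL-1α and 37.7 RPKM unstimulated in knockout cells, against 30.8 and 31.7 RPKM under IL-1α and 26.6 RPKM unstimulated in wild-type cells (0.31 ± 0.15, adjusted p = 0.396).

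ENO2, the neuronal enolase, was a minor transcript with 1.97 and 2.05 RPKM under IL-1α and 2.16 RPKM unstimulated in knockout cells, against 0.611 and 0.873 RPKM under IL-1α and 1.07 RPKM unstimulated in wild-type cells. Its log2 difference of 1.024 ± 0.24 (adjusted p = 0.189) was the largest of the enzymes, while ENO1, which supplies nearly all enolase transcript, differed by -0.0013 ± 0.24 (adjusted p = 0.999), by -0.27 without knockout IL-1α replicate 2 and by 0.26 without replicate 1. ENO1 had 597 and 862 RPKM under IL-1α and 593 RPKM unstimulated in knockout cells, against 693 and 744 RPKM under IL-1α and 771 RPKM unstimulated in wild-type cells. ALDOC, a minor aldolase, was the only enzyme with every knockout library (5.24 to 5.92 RPKM) below every wild-type library (6.65 to 7.51 RPKM), at a log2 difference of -0.24 ± 0.17 (adjusted p = 0.551). The 4 most abundant enzymes after GAPDH, namely PKM, ENO1, LDHA and ALDOA, differed by between -0.01 and 0.15, each within its own standard error. GAPDH itself differed by more than its standard error, at 0.28 ± 0.21 (adjusted p = 0.567). Without knockout IL-1α replicate 2 PKM differed by 0.028, LDHA by 0.063 and ALDOA by -0.15.

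Among the HIF genes VEGFA, the secreted vessel growth factor (chromosome 6, 43739722 to 43754223), was lower in the knockout. It had 26.9 and 31.8 RPKM under IL-1α and 17.8 RPKM unstimulated in knockout cells, against 62.6 and 50.8 RPKM under IL-1α and 32.1 RPKM unstimulated in wild-type cells. All 3 knockout values lay below all 3 wild-type values. The log2 difference was -0.94 ± 0.18 under IL-1α (adjusted p = 0.156) and -0.83 unstimulated, and without knockout IL-1α replicate 2 it was -1.06. SLC2A1, the main glucose carrier GLUT1 of keratinocytes, had 19.5 and 26.3 RPKM under IL-1α and 22.5 RPKM unstimulated in knockout cells, against 30.03 and 26.5 RPKM under IL-1α and 40.9 RPKM unstimulated in wild-type cells (-0.31 ± 0.20, adjusted p = 0.489; -0.52 without knockout IL-1α replicate 2; -0.85 unstimulated). The ranges did not overlap, but the highest knockout and lowest wild-type values, 26.3 and 26.5 RPKM, lay next to each other. Without knockout IL-1α replicate 1 the SLC2A1 difference under IL-1α was -0.10.

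The α subunits differed from each other in their pattern. EPAS1 (chromosome 2, 46524541 to 46613842) had 14.1 and 8.195 RPKM under IL-1α and 14.9 RPKM unstimulated in knockout cells, against 7.06 and 7.41 RPKM under IL-1α and 7.31 RPKM unstimulated in wild-type cells. The log2 difference of EPAS1 was 0.55 ± 0.27 under IL-1α (adjusted p = 0.390) and 0.98 unstimulated. Under IL-1α it was 0.92 without knockout replicate 2, the lowest of the knockout libraries, and 0.17 without knockout replicate 1. HIF1A (chromosome 14, 62162119 to 62214977) differed by -0.01 ± 0.19 between the genotypes (adjusted p = 0.992). It differed by -0.17 without knockout IL-1α replicate 2 and by 0.16 without replicate 1. EPAS1 was 20.8%, 10.8% and, unstimulated, 26.3% of the summed RPKM of both subunits in knockout libraries, and 11.3%, 10.0% and, unstimulated, 16.4% in wild-type libraries, so that the share overlapped between genotypes.

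Over all 36 genes, every knockout library lay above every wild-type library for 11, and 15.7% of all genes did so. These were HK1, PFKM, PFKFB3, PGAM1, ENO2, SLC2A3, BNIP3, BNIP3L, P4HA2, EPAS1 and the histone demethylase KDM3A, SLC2A3 having passed the 1 RPKM level only through a knockout library, and without knockout IL-1α replicate 2 there were 12 (24.7% of all genes). Every knockout library lay below every wild-type library for ALDOC, SLC2A1 and VEGFA, where 8.86% of all genes did so, and for 6 genes without that library (16.8%), the other 3 being ALDOA, ENO1 and the lactate exporter SLC16A3. P4HA2, a subunit of collagen prolyl hydroxylase, had 13.2 to 17.5 RPKM in knockout and 10.1 to 11.6 RPKM in wild-type libraries (0.48 ± 0.20, adjusted p = 0.335). That difference was 0.28 without knockout IL-1α replicate 1 and 0.68 without replicate 2. BNIP3L had 11.5 to 12.3 RPKM in knockout and 9.18 to 10.1 RPKM in wild-type libraries. In the unstimulated pair, 2 of 35 genes with at least 1 RPKM were at least 2-fold apart in RPKM, ENO2 and EPAS1, both higher in the knockout, beside 9.74% of all genes. At 1.5-fold 5 were higher, HK1, PFKFB3, ENO2, BNIP3 and EPAS1 (11.8% of all genes), and 4 lower, SLC2A1, SLC16A3, VEGFA and ANKRD37 (15.4% of all genes). The medians there were 0.08 for the enzymes and 0.26 for the HIF genes, beside -0.01 over all genes.

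A model with a single genotype term and a single IL-1α term over all 6 libraries, which uses the unstimulated libraries as further replicates of the genotype, called 3 members: HK1 (0.84 ± 0.15, adjusted p = 0.0319) and PFKFB3 (0.68 ± 0.14, adjusted p = 0.0446) rose and VEGFA (-0.90 ± 0.14, adjusted p = 0.0238) fell in the knockout. It called 2.65% of all genes. ENO2 reached 0.94 ± 0.20 (adjusted p = 0.0535). This model assumes an equal IL-1α response in both genotypes and was an alternative, not the main test.

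**Figure D3:**
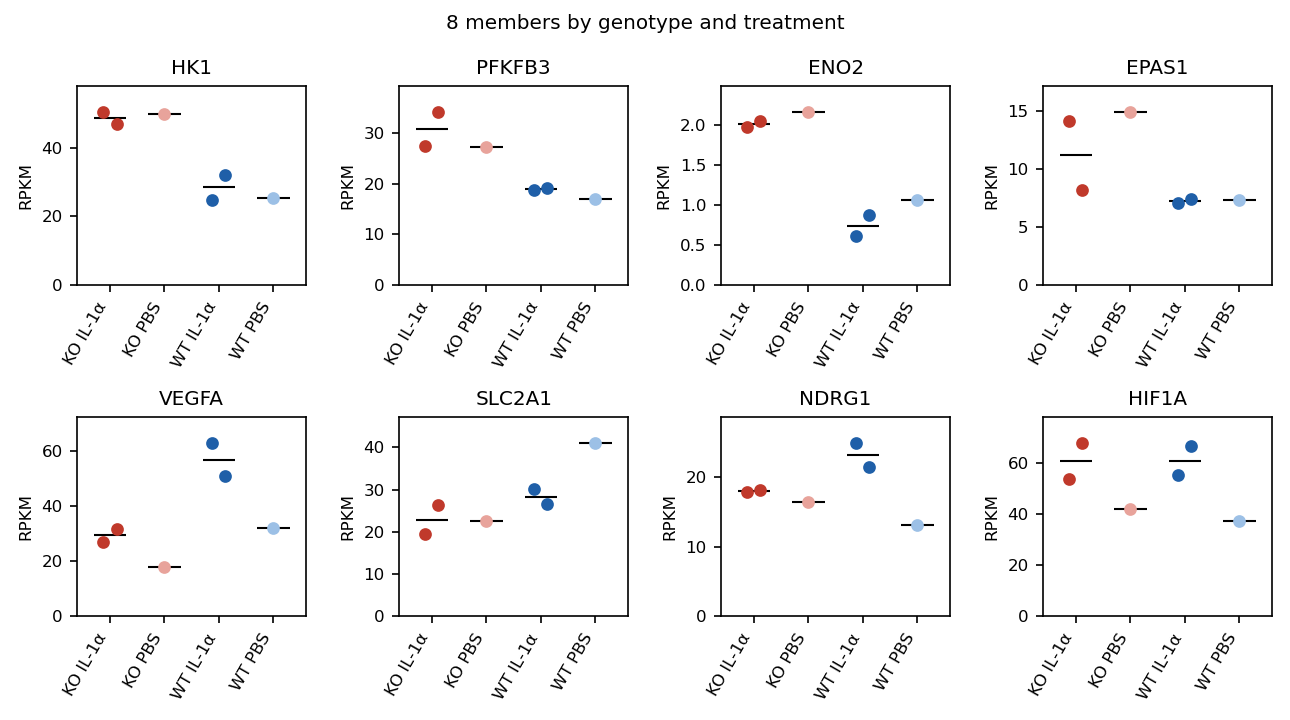
RPKM of 8 members in the 4 groups, with the axis starting at 0; points are libraries (2 per IL-1α group, 1 per PBS group) and black bars are group means, knockout groups at left. HK1, PFKFB3 and ENO2 are higher in both knockout groups, VEGFA is lower in the knockout and higher with IL-1α in both genotypes, and the EPAS1 points of the knockout IL-1α pair are 14.1 and 8.195 RPKM.

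In wild-type cells 4 h of IL-1α gave 0 calls among the 36 genes, where 0.217% of all genes passed. At an unadjusted p below 0.05, 4 members were higher with IL-1α, namely VEGFA, NDRG1, HIF1A and HK2, where 4.69% of all genes were, and 0 members were lower, where 13.4% of all genes were. VEGFA had 62.6 and 50.8 RPKM with IL-1α, against 32.1 RPKM without it, a log2 difference of 0.80 ± 0.22 (adjusted p = 0.172). NDRG1, a stress-responsive differentiation gene, had 24.8 and 21.4 RPKM with IL-1α, against 13.1 RPKM without it (0.79 ± 0.20, adjusted p = 0.155). HIF1A had 55.2 and 66.4 RPKM with IL-1α, against 37.2 RPKM without it (0.70 ± 0.23, adjusted p = 0.209). For each of these genes both IL-1α libraries lay above the unstimulated library. The difference of HK2 was 0.59 ± 0.23 (adjusted p = 0.251). Markers of other cell types differed with IL-1α as well. CDH5 had 11.4 and 11.8 RPKM with IL-1α, against 1.45 RPKM without it, in wild-type cells, and 10.3 and 1.84 RPKM with it, against 2.94 RPKM without it, in knockout cells. The leukocyte marker CD68, a lysosomal protein, had 14.4 and 11.3 RPKM with IL-1α, against 5.28 RPKM without it, in wild-type cells, and 5.43 and 7.23 RPKM, against 3.84 RPKM, in knockout cells. Neither passed the test, the other markers of their lists stayed under 1 RPKM, and their part in the results was not tested.

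The median log2 difference with IL-1α in wild-type cells was -0.16 over the enzymes and 0.00 over the HIF genes, beside -0.14 over all genes, and 16 members were above 0 (37% of all genes). On the deposited scale the enzymes thus lay near the bulk of genes. Rescaling the libraries by median of ratios brought the median of all genes to -0.01. With quantile normalization, or with the dependence on transcript length removed, the median of all genes was -0.011 and -0.0043. The enzymes' medians under those settings, given below, lay above these values. TPI1 had 199 and 194 RPKM with IL-1α, against 273 RPKM without it (-0.47 ± 0.22, adjusted p = 0.318), and -0.08 was left once the dependence on transcript length had been taken out. GAPDH differed by -0.34 ± 0.26 (adjusted p = 0.529) and by 0.08 after quantile normalization or removal of the length trend. SLC2A1 had 30.03 and 26.5 RPKM with IL-1α, against 40.9 RPKM without it (-0.53 ± 0.24, adjusted p = 0.314).

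In knockout cells IL-1α again gave 0 calls among the 36 genes, where 0.0696% of all genes passed, and VEGFA alone had an unadjusted p below 0.05 (2.53% of all genes were higher and 1.05% lower at that level). VEGFA had 26.9 and 31.8 RPKM with IL-1α, against 17.8 RPKM without it (0.70 ± 0.22, adjusted p = 1). HIF1A had 53.8 and 67.5 RPKM with IL-1α, against 41.8 RPKM without it (0.52 ± 0.23, adjusted p = 1). Both IL-1α libraries exceeded the unstimulated library for either gene. NDRG1 had 17.8 and 18.1 RPKM with IL-1α, against 16.4 RPKM without it (0.12 ± 0.20, adjusted p = 1). LDHA had 680 and 770 RPKM with IL-1α, against 640 RPKM without it (0.18 ± 0.23, adjusted p = 1, and 0.088 without replicate 2). ALDOA had 464 and 624 RPKM with IL-1α, against 467 RPKM without it (0.20 ± 0.27, adjusted p = 1), and the difference was -0.01 without replicate 2. The enzymes' median was 0.06 and that of the HIF genes 0.42, beside -0.02 over all genes, with 26 members above 0 (47.2% of all genes), and without replicate 2 the enzymes' median was -0.01 and the HIF median 0.01.

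The difference between the IL-1α responses of the genotypes, knockout minus wild type, was tested directly and called 0 members and 0 genes of all (0%). At an unadjusted p below 0.05 there were 0 members in either direction, beside 3.76% of all genes above and 0.627% below, and voom called 0 genes as well. The log2 value was above 0 for 23 members (60.4% of all genes). The response of NDRG1 was smaller in the knockout by -0.66 ± 0.28 (adjusted p = 0.966), that of VEGFA differed by -0.11 ± 0.31 (adjusted p = 0.987) and that of HIF1A by -0.18 ± 0.33 (adjusted p = 0.973). HK2 differed by -0.41 ± 0.32, TPI1 by 0.56 ± 0.31, ALDOA by 0.46 ± 0.38, SLC2A1 by 0.53 ± 0.34 and SLC16A3 by 0.57 ± 0.56, each at an adjusted p of 0.966. The largest values belonged to genes with a mean under 5 RPKM. They were ANKRD37 (1.29 ± 0.60), SLC2A3 (0.87 ± 0.87) and BNIP3 (0.85 ± 0.94), also at an adjusted p of 0.966. Without knockout IL-1α replicate 2 these differences were -0.22 for VEGFA, -0.34 for HIF1A, 0.25 for ALDOA and 0.32 for SLC2A1. They were then 0.07 for SLC16A3, 0.80 for ANKRD37, 0.14 for SLC2A3 and -0.03 for BNIP3. With 1 unstimulated library per genotype the standard errors of this difference were 0.256 or more for every member.

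Within the knockout IL-1α pair the members past 1.5-fold were HIF genes. Replicate 2 was at least 1.5 times replicate 1 for 6 of the 35 genes that reached 1 RPKM in another library (7.92% of all such genes), namely PDK1, SLC16A3, BNIP3, EGLN1, ANKRD37 and P4HA1, and at least that far below it for 1, EPAS1 (10.5% of all genes). SLC2A3 also passed, but it reached 1 RPKM in replicate 2 alone. None of the 19 enzymes passed 1.5-fold in this pair, though ENO1 was 1.45 times, PFKM 1.39 times and ALDOA 1.35 times as high in replicate 2. In the wild-type pair 0 of the 33 genes with at least 1 RPKM passed in either direction, where 5.16% of all genes were higher in replicate 2 and 3.17% lower. The pairs differ in depth and no test was made of the difference between them or between the enzymes and the HIF genes.

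**Figure D4:**
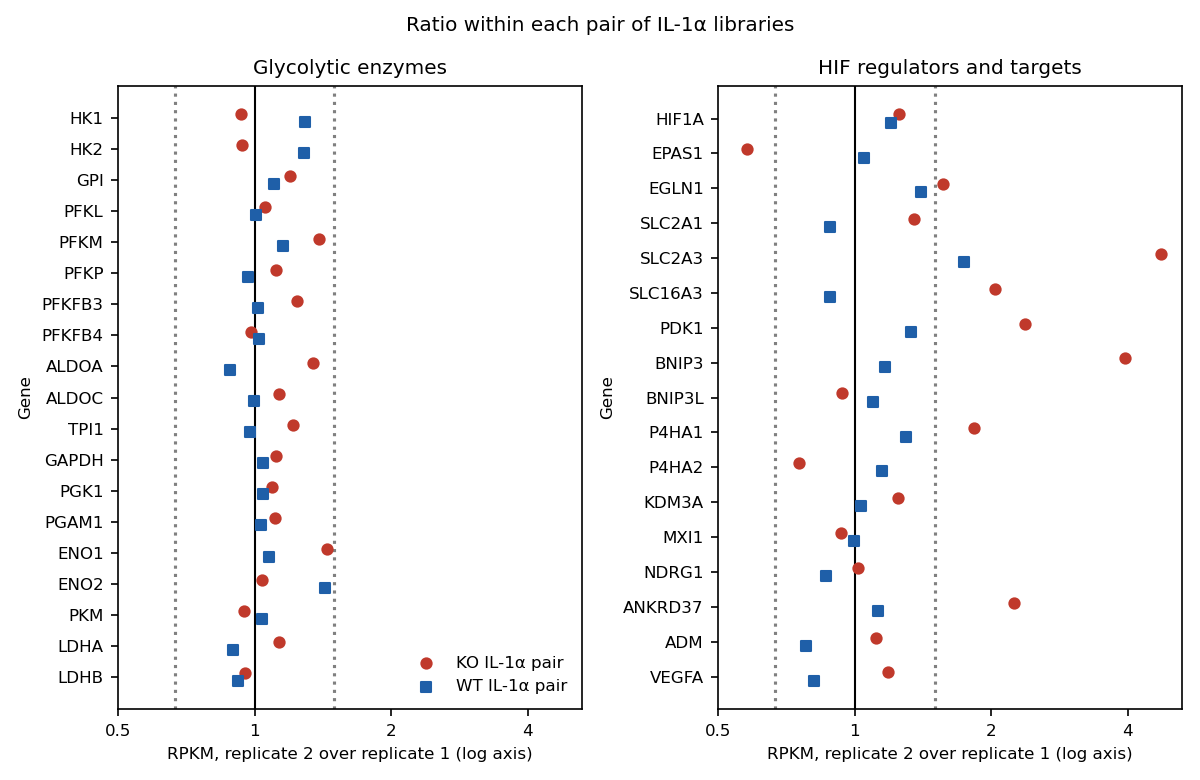
Ratio of replicate 2 to replicate 1 in RPKM for each gene on a log axis, for the knockout IL-1α pair (red circles) and the wild-type IL-1α pair (blue squares), enzymes at left and HIF genes at right; dotted lines mark 1.5-fold. Red circles pass 1.5 for SLC2A3, BNIP3, PDK1, ANKRD37, SLC16A3, P4HA1 and EGLN1; the wild-type square of SLC2A3 beyond 1.5 comes from values under 1 RPKM.

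BNIP3, the mitophagy receptor, had 2.19 and 8.66 RPKM in knockout IL-1α replicates 1 and 2 and 2.11 RPKM in unstimulated knockout cells, against 1.28 and 1.49 RPKM under IL-1α and 1.29 RPKM unstimulated in wild-type cells. The neuronal-type glucose carrier SLC2A3 had 0.442, 2.10 and, unstimulated, 0.561 RPKM in knockout libraries, against 0.047, 0.082 and, unstimulated, 0.198 RPKM in wild-type libraries. It reached 1 RPKM only in knockout IL-1α replicate 2, so that its being highest there was set by the filter. PDK1, the kinase that shuts pyruvate out of the citric acid cycle, had 2.56, 6.08 and, unstimulated, 2.69 RPKM in knockout libraries, against 2.09, 2.77 and, unstimulated, 2.37 RPKM in wild-type libraries. In all 3 genes replicate 2 of the knockout was the highest library and replicate 1 lay near the unstimulated knockout library.

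The lactate exporter SLC16A3 had 14.5, 29.5 and, unstimulated, 14.4 RPKM in knockout libraries, against 22.2, 19.6 and, unstimulated, 21.8 RPKM in wild-type libraries. P4HA1, the other collagen prolyl hydroxylase subunit, had 12.6, 23.1 and, unstimulated, 12.02 RPKM in knockout libraries, against 9.81, 12.7 and, unstimulated, 9.19 RPKM in wild-type libraries. EGLN1 had 6.83, 10.7 and, unstimulated, 6.27 RPKM in knockout libraries, against 5.03, 7.05 and, unstimulated, 4.65 RPKM in wild-type libraries. Replicate 2 of the knockout was again the top library of each. ANKRD37, an ankyrin-repeat HIF target, had 1.71, 3.84 and, unstimulated, 1.80 RPKM in knockout libraries, against 1.64, 1.85 and, unstimulated, 3.58 RPKM in wild-type libraries, so here the unstimulated wild-type library was nearly as high.

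The read ratio of replicate 2 to replicate 1 was 3.95 for BNIP3 (95% exact interval 3.10 to 5.10), 4.74 for SLC2A3 (3.36 to 6.86), 2.38 for PDK1 (2.0 to 2.84) and 1.84 for P4HA1 (1.69 to 2.0). CA9, a classic HIF target, had 24 reads in replicate 2 and 1 read in replicate 1, a ratio of 17.6 (2.88 to 726), although it stayed under 1 RPKM. CA12, also under 1 RPKM, went the other way, with 15 reads in replicate 2 and 77 in replicate 1, a ratio of 0.143 (0.0765 to 0.251). P4HA2 had a ratio of 0.755 (0.684 to 0.833) and EPAS1 of 0.580 (0.538 to 0.625). These intervals cover counting error only. Leaving SLC2A3 out, PDK1, BNIP3, EGLN1 and P4HA1 were at least 1.5 times each of the other 5 libraries in knockout IL-1α replicate 2, 4 of 35 genes beside 1.17% of all genes that reached 1 RPKM in another library. That library was the highest of the 6 for 19 of these 35 genes, 11 enzymes among them, where it was for 22.6% of such genes. HIF1A itself was 67.5 RPKM in replicate 2 and 53.8 RPKM in replicate 1, close to the 66.4 and 55.2 RPKM of the wild-type pair. VEGFA, also a HIF target, was 31.8 and 26.9 RPKM, and BNIP3L 11.5 and 12.3 RPKM, in replicates 2 and 1.

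Other transcripts differed in that library. The basal keratin KRT17 had 267 RPKM in knockout IL-1α replicate 2 and 747 RPKM in replicate 1, the desmosomal cadherin DSG3 29.7 and 67.7 RPKM, MAPK14 7.41 and 10.99 RPKM and the endothelial marker CDH5 1.84 and 10.3 RPKM. Their part in the result was not tested. Of 31 further HIF targets at 1 RPKM, 7 were at least 1.5 times higher in replicate 2 (ERO1A, FAM162A, AK4, BHLHE41, FUT11, MIF and KDM5B; 8.42% of all genes) and 4 at least that much lower, LOXL2, BHLHE40 and EFNA1 among them (10.5% of all genes). The log2 difference between genotypes under IL-1α depended on this library for BNIP3 (1.40 ± 0.54 with it, adjusted p = 0.319, and 0.51 without it), SLC2A3 (1.47 ± 0.50, adjusted p = 0.275, and 0.74), PDK1 (0.62 ± 0.38 and 0.07) and P4HA1 (0.59 ± 0.30 and 0.16). For SLC16A3 it was -0.01 ± 0.32 with the library, -0.51 without it and 0.49 without replicate 1.

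Promoters of BNIP3, ANKRD37, PDK1, P4HA1 and EGLN1 are printed from RefSeq (GRCh38.p14, so not in the hg19 coordinates of the expression table), to show where the core letters of HIF binding lie in the genes that were high in knockout IL-1α replicate 2. These genes and this motif were chosen with the values known. Each window runs from 250 bases before to 50 bases after the start site, 5′ to 3′ along the gene, and capitals mark ACGTG or GCGTG on either strand (CACGT or CACGC when read on the opposite strand, with CACGTG counted once per strand).
BNIP3 (chr10:131981874-131982173, minus strand): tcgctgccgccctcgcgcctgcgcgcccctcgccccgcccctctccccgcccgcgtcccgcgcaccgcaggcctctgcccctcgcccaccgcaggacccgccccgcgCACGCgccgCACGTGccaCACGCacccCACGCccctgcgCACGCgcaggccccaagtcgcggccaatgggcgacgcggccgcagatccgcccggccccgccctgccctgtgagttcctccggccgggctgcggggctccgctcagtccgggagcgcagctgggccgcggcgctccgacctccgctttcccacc
ANKRD37 (chr4:185396591-185396890, plus strand): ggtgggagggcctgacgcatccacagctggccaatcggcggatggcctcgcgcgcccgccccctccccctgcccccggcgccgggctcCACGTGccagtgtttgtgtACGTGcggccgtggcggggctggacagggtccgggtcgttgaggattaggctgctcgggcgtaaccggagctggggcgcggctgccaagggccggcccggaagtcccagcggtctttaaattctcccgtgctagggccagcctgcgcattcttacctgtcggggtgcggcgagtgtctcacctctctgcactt
PDK1 (chr2:172555840-172556139, plus strand): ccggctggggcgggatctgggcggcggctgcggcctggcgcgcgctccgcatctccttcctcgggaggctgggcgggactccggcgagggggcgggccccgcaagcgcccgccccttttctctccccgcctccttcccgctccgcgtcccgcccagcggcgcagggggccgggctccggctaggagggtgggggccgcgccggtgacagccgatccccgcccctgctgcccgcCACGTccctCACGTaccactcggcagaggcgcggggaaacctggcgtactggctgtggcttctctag
P4HA1 (chr10:73096817-73097116, minus strand): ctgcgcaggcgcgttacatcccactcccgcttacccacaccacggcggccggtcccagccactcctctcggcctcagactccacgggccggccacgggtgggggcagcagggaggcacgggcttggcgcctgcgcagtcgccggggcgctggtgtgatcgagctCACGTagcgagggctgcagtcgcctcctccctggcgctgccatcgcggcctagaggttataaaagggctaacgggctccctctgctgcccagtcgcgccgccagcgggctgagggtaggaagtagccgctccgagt
EGLN1 (chr1:231422238-231422537, minus strand): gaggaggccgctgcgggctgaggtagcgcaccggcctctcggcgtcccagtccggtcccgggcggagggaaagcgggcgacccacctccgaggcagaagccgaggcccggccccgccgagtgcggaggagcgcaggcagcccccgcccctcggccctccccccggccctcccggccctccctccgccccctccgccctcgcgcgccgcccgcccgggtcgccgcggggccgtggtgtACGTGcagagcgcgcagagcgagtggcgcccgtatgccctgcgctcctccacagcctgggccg
BNIP3 held 6 matches, all between -143 and -104 from the start site, ANKRD37 held 3 between -162 and -143, PDK1 held 2 at -17 and -8, P4HA1 held 1 at -86 and EGLN1 held 1 at -13, giving the first base of each match. A second listed PDK1 window held none. SLC16A3, which has 5 listed windows and is not printed, held a match in 3 of them and none in 2.

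Of the 36 analysed genes 32 were in the promoter table, with 62 windows, and 42 windows (67.7%) held at least 1 match. The share was 60.7% for windows of all tested genes and 48.4% for all promoters, so most promoters of expressed genes hold these 5 letters. It was 65% for the enzymes (40 windows) and 72.7% for the HIF genes (22 windows). Counted by gene, 30 of 32 members had a match in at least 1 window, the exceptions being PGAM1 and P4HA2, against 70% of tested genes, and genes with several windows had more chances. A match describes letters and is not evidence of binding.

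Neighbouring pathways were followed as 7 further lists. Of 20 other glycolysis and sugar-entry genes, 7 pentose phosphate genes, 13 genes of pyruvate entry, 18 citric acid cycle genes, 14 genes of oxygen sensing and 31 other HIF targets at 1 RPKM, 0 passed in any tested contrast. Of 5 genes of the MondoA glucose sensor and its targets, 1 passed. TXNIP, which restrains glucose uptake and reports intracellular glucose through MondoA, had 27.2 and 33.3 RPKM under IL-1α and 31.3 RPKM unstimulated in knockout cells, against 5.78 and 7.002 RPKM under IL-1α and 24.2 RPKM unstimulated in wild-type cells. It was higher in the knockout under IL-1α by 2.16 ± 0.18 (adjusted p = 0.0345), while the unstimulated difference was 0.37. With each IL-1α library left out in turn the difference was 2.01 to 2.30 and no longer passed (adjusted p = 0.0962 to 0.932), nor did it with no filter on low values, without the variance trend or with the additive model (1.56). In wild-type cells both IL-1α libraries lay below the unstimulated one (-1.85, adjusted p = 0.0579), whereas the 3 knockout libraries were alike. The interaction was 1.79 and did not pass (adjusted p = 0.966). Its fellow target ARRDC4 had 6.42, 6.22 and, unstimulated, 5.96 RPKM in knockout libraries, against 3.65, 4.0 and, unstimulated, 4.79 RPKM in wild-type libraries.

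Large genotype differences under IL-1α in the other lists included that of the fructose kinase KHK (1.11, adjusted p = 0.134). The pyruvate dehydrogenase kinase PDK3 differed by 1.03 (adjusted p = 0.246). Among further HIF targets, the clock repressor BHLHE41 differed by -1.15 (adjusted p = 0.200) and ANGPTL4 by 0.93 (adjusted p = 0.162). SLC2A12 differed by -1.02 (adjusted p = 0.395), with 3.19 and 0.691 RPKM in knockout IL-1α replicates 1 and 2. The mitochondrial isocitrate dehydrogenase IDH2 differed by 0.74 (adjusted p = 0.206) and the second HIF β-type subunit ARNT2 by 0.87 (adjusted p = 0.286). PDK3 and ARNT2 reached 1 RPKM only in knockout libraries, so their being higher there was favoured by the filter. ARNT, the main β subunit, ranged from 4.47 to 5.68 RPKM in all libraries, and VHL, which recognises hydroxylated HIF-α, from 7.06 to 10.1 RPKM. None of these passed the test.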

How the data were processed

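RNA of 6 HaCaT libraries was prepared with TRIzol and RNeasy columns and a stranded TruSeq mRNA kit, per the labels' protocols. Per the submitters' processing notes, bcl2fastq 2.20.0.422, STAR and HOMER were used with hg19; other versions are not given in the sources used here. The authors deposited RPKM (FPKM in the column names, per the file headers) from exon counting with HOMER, with 1 line per gene symbol; the strand setting is not stated, so antisense reads may be included, and no strand can be assigned to a value. Library depth is the read number at which values of 0.02 to 1 RPKM turned whole within 0.1 read (100% of values), and rebuilt reads served for read-ratio intervals and voom only.

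The 12925 genes that reached 1 RPKM in any library entered limma 3.58.1 (R 4.3.3) on the log2(RPKM + 0.5) scale, with 4 group means, variances moderated along a trend with level, and p-values adjusted by Benjamini-Hochberg, called below 0.05. Fold changes are on this scale and understate those of low genes. The spread came from the 2 replicated groups (2 residual and 4.2 prior degrees of freedom), assuming that the unstimulated libraries vary alike. The contrasts share libraries and are not independent. The unstimulated genotypes were compared by fold alone.

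A single gene of the further lists is left out of the text. Members and lists were chosen with earlier results of these data known. Given in every library were HIF1A, EPAS1, the 2 most abundant genes of each subset and, per comparison and subset, the 3 largest differences at a mean of at least 5 RPKM; of other lists, genes that passed. ENO2, ALDOC, BNIP3L, P4HA2, CA9, CA12, KRT17 and DSG3 were named after their values were seen. So were genes of other lists that did not pass, and the other genes high in knockout IL-1α replicate 2. Alternatives were other pseudocounts, filters and scalings, no trend, voom, removal of a length trend, a replicate block, an additive model and leaving out each IL-1α library. The script was tested on simulated data. Promoter windows came from RefSeq (GRCh38.p14; 35 of 39 genes matched by symbol) and were searched with Python 3.11.15.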

Additional observations from a re-analysis of the deposited data

How the results depend on the processing

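No member passed under any alternative tried except the additive model, which called 3. The number of all genes called moved with most settings. With IL-1α in wild-type cells (28) it was 162 with a 5 RPKM filter, 49 with no filter, 48 with median-of-ratios rescaling, 15 with voom, 96 with the length trend removed, 81 with the replicate block, 138 with the additive model, and 0 to 46 when a library was left out. With IL-1α in knockout cells (9) it was 5 with a pseudocount of 1, 49 with the 5 RPKM filter, 65 with no filter, 4 with no trend, 2 with voom, 21 with the length trend removed, 18 with the replicate block, 138 with the additive model and 0 when any IL-1α library was left out. For knockout against wild type under IL-1α (20) it was 7 with a pseudocount of 0.1, 88 with the 5 RPKM filter, 0 with no filter, 13 with quantile normalization, 0 with no trend, 56 with voom, 40 with the length trend removed, 58 with the replicate block, 343 with the additive model and 0 when any IL-1α library was left out. The interaction (0) had 87 calls with no filter.

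Subset medians moved more than the spread between replicates as follows. For HIF genes with IL-1α in knockout cells (0.42) the median was 0.27 with the 5 RPKM filter, 0.13 with the additive model and 0.0063 to 0.68 when a library was left out. For HIF genes with IL-1α in wild-type cells (0.00) it was 0.14 with median of ratios, 0.091 with quantile normalization, 0.17 with the length trend removed, 0.13 with the additive model and -0.0032 to 0.098 when a library was left out. For enzymes in wild-type cells (-0.16) it was 0.12 with quantile normalization and 0.083 with the length trend removed. The interaction medians were 0.21 for enzymes and 0.03 for HIF genes in the main fit, beside 0.10 over all genes. For enzymes the median was 0.0128 with quantile normalization and 0.0125 with the length trend removed. For HIF genes it was -0.082 with median of ratios and -0.073 with quantile normalization. For HIF genes in knockout against wild type under IL-1α (0.29) it was 0.19 with median of ratios, 0.18 with the length trend removed and 0.070 to 0.35 when a library was left out. In the unstimulated pair the enzymes' median was 0.29 with quantile normalization and that of the HIF genes 0.13 with the length trend removed, and 4 genes were 2-fold apart with quantile normalization, while 9 passed when 1.5-fold was used in place of 2-fold. The cause was not tested.

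GAPDH with IL-1α in wild-type cells reversed to 0.084 with quantile normalization and 0.082 with the length trend removed; ALDOA in knockout cells reversed to -0.027 with the additive model and -0.010 without knockout replicate 2. Same-numbered IL-1α libraries did not deviate together (r = 0.0086 across 12925 genes). With 1 pair per genotype this cannot show whether same-numbered libraries were prepared together. The main test used no pairing, and the replicate block called 0 members. Counts on knockout replicate 2 over genes that reached 1 RPKM elsewhere were chosen after seeing the data. Without that library, also chosen then, the members below wild type in every library numbered 6 in place of 3. With 2 libraries per IL-1α group and 1 per unstimulated group, the standard errors of the IL-1α responses limit what could be called.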

Other observations

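Some genes of the citric acid cycle, of pyruvate entry and of oxygen sensing lay highest in the unstimulated wild-type library. Over 18 citric acid cycle genes the median log2 difference with IL-1α was 0.01 in knockout cells and -0.33 in wild-type cells, where the median of all genes was -0.02 and -0.14. SDHD, a membrane anchor of succinate dehydrogenase, had 67.9, 77.1 and, unstimulated, 71.1 RPKM in knockout libraries, against 64.9, 57.8 and, unstimulated, 113 RPKM in wild-type libraries. The mitochondrial pyruvate carrier MPC1 had 15.5, 17.3 and, unstimulated, 15.01 RPKM in knockout libraries, against 18.0, 14.9 and, unstimulated, 30.1 RPKM in wild-type libraries. RBX1, a subunit of the ligase that removes HIF-α, had 37.8, 27.0 and, unstimulated, 33.1 RPKM in knockout libraries, against 36.5, 28.5 and, unstimulated, 69.3 RPKM in wild-type libraries. Neither SDHD, MPC1 nor RBX1 passed in any contrast. The unstimulated wild-type group is 1 library, and these values are without removal of the length trend. That removal brought the wild-type median of all genes to -0.0043, and its effect on these lists is not given here.

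DDIT4, a HIF target that restrains mTOR, was lower in the knockout, with 55.8, 56.1 and, unstimulated, 63.8 RPKM, against 104, 79.2 and, unstimulated, 166 RPKM in wild-type libraries. Its log2 difference under IL-1α was -0.69 (adjusted p = 0.210 with limma) and -1.38 unstimulated. The additive model, which called 2.65% of all genes, also called DDIT4, BHLHE41 and ANGPTL4. BHLHE41 was lower in the knockout, with 0.545, 1.19 and, unstimulated, 1.06 RPKM, against 2.42, 2.47 and, unstimulated, 2.82 RPKM in wild-type libraries. ANGPTL4 was higher in the knockout, with 5.84, 5.71 and, unstimulated, 4.96 RPKM, against 2.96, 2.63 and, unstimulated, 2.68 RPKM in wild-type libraries.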
